A study of Mus musculus with 5 samples.

Results

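The 40 genes described here are markers of the cell division cycle, followed by symbol through 5 tables of UMI counts (unique molecular identifiers, one per captured transcript end) from single cells of the mouse spinal cord. All 40 symbols were present among the 27998 genes that the 5 tables shared. They were split into 10 replication genes (Mcm2 to Mcm7, Pcna, Tyms, Rrm2 and Tk1), 25 mitotic genes, and 5 genes in neither set (Stmn1, H2afz, Hmgb2, 2810417H13Rik and Hist1h2ap). The cells came from Col1a1GFP mice on a C57/BL6 background, in which green fluorescent protein reports the collagen gene Col1a1, and single GFP-positive cells were sorted for 10x Genomics v2 libraries. Healthy mice gave 3 libraries, and mice with EAE (experimental autoimmune encephalomyelitis, an immune attack on the central nervous system) gave 2. Both groups carry the reporter. Only cells with reporter signal at the sort were sampled, and neither the agent used to induce EAE nor the ages of the mice are in the labels. The labels do not say how many animals a library holds or whether animals differ between libraries. The p-values therefore speak at most of the spread among these 5 libraries, which may be technical.

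A dividing cell licenses its replication origins with the Mcm2-7 helicase in G1, unwinds and copies its DNA in S phase, and then turns on a second wave of genes whose products condense, align and separate the chromosomes. Genes of the first wave are classically driven by E2F factors and many of the second wave by the MuvB complex with B-Myb and FoxM1, acting through a promoter element called the CHR and neighbouring CCAAT boxes. Fibroblasts of the meninges and of the vessel walls divide little in the healthy adult cord and are known to expand where tissue is injured or inflamed.

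The libraries differed in depth and 3 of them shared barcodes. Healthy 1, Healthy 2 and EAE 1, here the first batch, held 3332 distinct barcodes, of which 1552 were present in more than one of the 3 tables. In the second batch, Healthy 3 and EAE 2, whose labels carry a lane, 1 of 1637 was. A shared barcode of the first batch was kept only in the table where it had the most UMIs, which removed 1549 barcodes from Healthy 1, 684 from Healthy 2 and 2 from EAE 1. The copies carry mitotic UMIs: 1539 copies in Healthy 1 that passed the quality filter had a mitotic level of 480 CPM (UMIs of the set per 1000000 UMIs of the same cells) against 31.3 in the Healthy 1 cells counted once, and 683 in Healthy 2 had 780 against 89.6. Of the 85 copies in Healthy 1 with at least 2 mitotic UMIs, 84 were kept in EAE 1, and all 84 of those EAE 1 cells had at least 2 mitotic UMIs as well. All 79 such copies in Healthy 2 were kept in EAE 1, and 79 of 79 matched in the same way. With barcodes counted once and low-quality barcodes removed, 724, 429 and 374 cells remained in Healthy 1 to 3, 1913 in EAE 1 and 1238 in EAE 2.

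Cells with at least 3 of 9 fibroblast markers (Col1a1, Col1a2, Col3a1, Dcn, Lum, Pdgfra, Fn1, Col6a1 and Col6a2) that met no other class's gate were taken as fibroblast-gated cells, 593, 379 and 345 in Healthy 1 to 3, 1667 in EAE 1 and 1155 in EAE 2, between 81.9% and 93.3% of the kept cells of a library. The gate reads a cell's markers and is not a finding about them. A cell had a median of 1348 UMIs in Healthy 1, 3176 in Healthy 2 and 4360 in Healthy 3, against 4647 in EAE 1 and 5194 in EAE 2. Immune markers were low among them, with Ptprc and Rac2 at 0 in all Healthy libraries: the 4 pan-immune genes summed to between 0 and 2.41 CPM in the Healthy libraries and to 14.3 and 3.46 in EAE, and the 7 lymphocyte genes in the tables to between 0.804 and 2.03 and to 8.32 and 3.61. Mural genes summed to between 1510 and 1640 CPM in Healthy and to 704 and 871 in EAE. Haemoglobin and other erythroid genes reached between 10.1 and 57.9 CPM in Healthy, 102 in EAE 1 and 1.87 in EAE 2, and osteoblast genes reached 4290 CPM in Healthy 2 against at most 165 in the other libraries. Endothelial genes summed to between 69.1 and 99.2 CPM in Healthy and to 161 and 184 in EAE, astrocyte genes to between 191 and 356 and to 431 and 425, and neuron genes to between 0 and 2.15 and to 22.5 and 14.6, with Snap25 at 0 in every library. The astrocyte sum of Healthy 1 was Slc1a3 alone, and the neuron sum of EAE 2 was Tubb3 alone. These sums are therefore not read as astrocyte or neuron signal. Neutrophil genes stood at 18.4 CPM in EAE 1 and at no more than 3.22 elsewhere. The part of these levels in the results that follow was not tested.

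Mitotic genes were higher in the fibroblast-gated cells of both EAE libraries than in any Healthy library, and replication genes much less so. Summed over the 25 genes, the mitotic level was 31.2, 28.1 and 29.7 CPM in Healthy 1 to 3, against 433 and 227 CPM in EAE 1 and EAE 2, so the groups did not overlap. The same sum was 14.7 times the Healthy value within the first batch and 7.64 times within the second. The 10 replication genes gave 157, 118 and 153 CPM in Healthy 1 to 3, against 202 and 162 in EAE, which is 1.5 times the Healthy value within the first batch and 1.06 times within the second. Pcna alone supplied between 56.5% and 64.4% of the replication UMIs in Healthy and 28.5% and 44.4% in EAE. Without Pcna, the other 9 replication genes gave 55.9, 51.5 and 61.4 CPM in Healthy and 145 and 90.1 in EAE, or 2.71 times within the first batch and 1.47 times within the second. In sums over cells, more cells with a transcript and more transcript in each cell cannot be told apart.

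**Figure D1:**
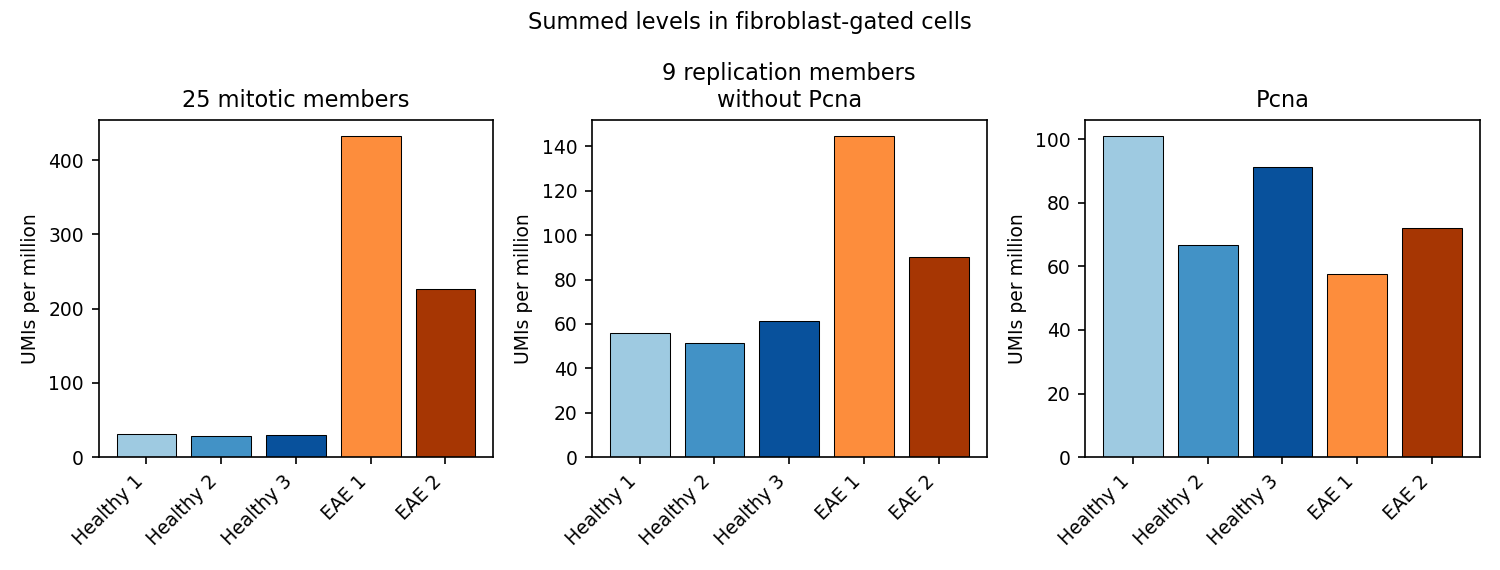
Level in CPM (vertical axis, UMIs per 1000000) of the 25 mitotic genes, the 9 replication genes without Pcna, and Pcna, summed over the fibroblast-gated cells of each library, 1 bar per library. The mitotic bars of EAE 1 and EAE 2 (433 and 227) stand far above the Healthy bars (28.1 to 31.2), and the Pcna bars overlap between the groups.

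Gene by gene, all 40 members were tested in the fit of edgeR's quasi-likelihood model that has no filter on low counts, with library batch as a term. In that fit 22 of the 25 mitotic genes, 4 of the 10 replication genes and 3 of the 5 others were higher in EAE at a Benjamini-Hochberg adjusted p under 0.05, and none was lower, where 9.13% of all 18060 genes were higher and 6.15% lower. The 3 mitotic genes that did not pass were Bub1b, Kif11 and Nusap1, with log2 fold changes of 1.78, 1.97 and 1.57 and adjusted p-values of 0.072, 0.287 and 0.154. The median log2 fold change was 4.23 over the mitotic genes (3.13 with the 5 genes that had no Healthy UMI set at the lower bound that 3 UMIs over the Healthy group give) and 0.82 over the replication genes, beside 0.16 over all genes. Both EAE libraries lay above every Healthy library for 23 of the 25 mitotic genes, for 5 replication genes and for 4 of the 5 others, where 21.9% of all genes with any count did so. Kif11 and Prc1 were the mitotic exceptions. EAE 1 lay above EAE 2 for 24 of the 25 mitotic genes, Bub1 being the exception.

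The values in CPM, here scaled by edgeR's TMM factors, and, unless marked otherwise, the fold changes and p-values below are from the main edgeR fit, which tests only genes with enough counts: 11 mitotic, 7 replication and 5 other members passed that filter, with 17 of them higher in EAE, where 10.2% of the 9857 genes tested were higher and 10.7% lower. A gene absent or sparse in Healthy cells passes such a filter only through EAE. Neither this count nor a main-fit p-value of such a gene is separate support. Adjusted p-values marked as having no filter are from the other fit, in which each of the 17 also passed. For many genes they lie far below those of the main edgeR fit. They were 6.8e-25 against 4.8e-05 for Birc5, 1.1e-21 against 1.1e-04 for Cenpa and 1.1e-09 against 0.0417 for Top2a. The cause of this gap was not tested, so the size of a no-filter p-value is not read as a measure of the spread among libraries. Without EAE 1, the library with the most mitotic UMIs, 4 mitotic genes, no replication gene and no other member passed. Without Healthy 1 or Healthy 3, 20 mitotic genes passed in each case, and without Healthy 3, 5 replication genes did. Without Healthy 2, Top2a and Mcm6 lost their calls. Without the 5% of cells of each library with the most UMIs, an alternative chosen after seeing the data, 7 mitotic genes and no replication gene passed. The share over all genes in these alternative fits is not given here, so their counts cannot be set against it.

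The promoters of 4 mitotic and 2 replication genes are printed to show the elements named above as they stand in these genes, and were picked after the matches were known. RefSeq promoter windows (GRCm38.p6, the same primary assembly as mm10, from 250 bases before to 50 after the start) were found for 33 of the 40 members: 9 replication, 21 mitotic and 3 others. An E2F match, spelled TTTGGCGC or TTTCGCGC on either strand, was present for Mcm3, Mcm5, Mcm6 and Mcm7, 4 of the 9 replication genes (44.4%), and for Cdk1 alone of the 21 mitotic genes (4.76%), compared with 0.929% of 27025 genes with a window. A CHR match, TTTGAA on either strand, was present for 16 of the 21 mitotic genes (76.2%) and for Mcm2 alone of the replication genes (11.1%), compared with 20.2% of all genes. A CCAAT box on either strand was present for 19 of the 21 mitotic (90.5%) and 7 of the 9 replication genes (77.8%), compared with 41.1% of all. Each match is a description of the letters, not of a bound site, and these shares were not tested.

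The 250 bases upstream of the RefSeq start follow, 5′ to 3′ on the gene's strand, with matches to the 3 motifs in capitals (E2F and CHR elements, and CCAAT or its reverse ATTGG). Top2a (chr11:99024190-99024439, minus strand), Cdc20 (chr4:118437344-118437593, minus), Ccnb2 (chr9:70421555-70421804, minus) and Cdk1 (chr10:69352913-69353162, minus) are the mitotic examples, each with at least 1 CHR match in this stretch.
Top2a: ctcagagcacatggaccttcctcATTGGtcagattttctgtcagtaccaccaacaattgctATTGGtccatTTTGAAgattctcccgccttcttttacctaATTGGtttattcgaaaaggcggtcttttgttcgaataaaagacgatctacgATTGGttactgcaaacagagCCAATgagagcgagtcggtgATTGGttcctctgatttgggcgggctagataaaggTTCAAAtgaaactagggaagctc
Cdc20: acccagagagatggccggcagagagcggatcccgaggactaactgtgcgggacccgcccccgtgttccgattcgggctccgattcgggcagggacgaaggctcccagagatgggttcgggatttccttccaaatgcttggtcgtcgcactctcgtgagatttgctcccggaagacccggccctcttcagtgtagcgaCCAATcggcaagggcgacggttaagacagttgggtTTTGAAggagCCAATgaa
Ccnb2: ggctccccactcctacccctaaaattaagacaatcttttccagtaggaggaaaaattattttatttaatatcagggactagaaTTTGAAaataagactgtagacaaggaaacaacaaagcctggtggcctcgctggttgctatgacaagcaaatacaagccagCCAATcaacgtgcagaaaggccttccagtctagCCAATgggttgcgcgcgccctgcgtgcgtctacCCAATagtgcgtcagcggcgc
Cdk1: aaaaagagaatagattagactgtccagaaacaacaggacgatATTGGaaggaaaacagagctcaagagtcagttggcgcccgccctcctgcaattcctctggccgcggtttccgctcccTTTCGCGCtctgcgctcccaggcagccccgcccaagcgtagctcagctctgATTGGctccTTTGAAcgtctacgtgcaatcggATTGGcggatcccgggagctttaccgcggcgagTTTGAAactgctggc
Top2a has 2 CHR and 6 CCAAT matches, and Cdk1 has an E2F match beside its 2 CHR matches. Mcm6 (chr1:128359706-128359955, minus strand) and Mcm5 (chr8:75109259-75109508, plus) are the only replication genes with an E2F match in this stretch, so they are not typical of the set: Rrm2, Tyms, Mcm2, Pcna and Tk1 have none in the whole window, and Mcm3 and Mcm7 none upstream of the start.
Mcm6: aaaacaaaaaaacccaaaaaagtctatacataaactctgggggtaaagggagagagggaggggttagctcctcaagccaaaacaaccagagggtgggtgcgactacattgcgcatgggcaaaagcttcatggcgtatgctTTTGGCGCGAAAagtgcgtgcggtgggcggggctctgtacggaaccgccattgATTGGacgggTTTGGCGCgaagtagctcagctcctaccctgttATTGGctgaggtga
Mcm5: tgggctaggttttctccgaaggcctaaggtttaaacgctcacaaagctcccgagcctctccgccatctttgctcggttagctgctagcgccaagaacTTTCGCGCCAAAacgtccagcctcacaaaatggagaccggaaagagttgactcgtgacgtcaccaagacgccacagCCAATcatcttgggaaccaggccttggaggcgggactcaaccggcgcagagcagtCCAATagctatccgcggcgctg
Mcm6 has 3 E2F matches and Mcm5 has 2, some of them overlapping on opposite strands and printed as 1 run of capitals, and neither has a CHR match.

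Among the mitotic genes, Mki67 and Top2a act on the structure of chromosomes. Mki67, which encodes the Ki-67 coat protein of mitotic chromosomes (GRCm38 chr7:135689784-135716361), had no UMI in any Healthy library and 131 and 64 UMIs in EAE 1 and EAE 2, or 14.8 and 8.89 CPM. Over the pooled EAE libraries that is 15.2-fold higher when 3 UMIs are set as the floor over the Healthy group. The lower limit of the counting interval was 12.3 (edgeR adjusted p = 1.4e-11 in the fit with no filter). With the filter, which Mki67 passed only through EAE, it was not called by DESeq2 or without EAE 1. Top2a, the topoisomerase that untangles sister chromatids, had 0, 4.3 and 6.86 CPM in Healthy 1 to 3, against 37.1 and 13.3 CPM in EAE 1 and EAE 2. Its log2 fold change was 2.55 (SE 0.68, adjusted p = 0.0417), and the groups did not overlap. Top2a did not pass under DESeq2, without the batch term, without Healthy 2 or without EAE 1, where its log2 fold change was 0.97. Without EAE 1 the comparison rests on EAE 2.

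Genes of the centromere and of the chromosomal passenger complex, which corrects the attachment of chromosomes to the spindle, were also higher. Birc5 (survivin) had 0, 0 and 0.686 CPM in Healthy and 38.6 and 23.5 CPM in EAE. With 1 Healthy UMI in all, its ratio of EAE to Healthy was 120 with a counting interval of 21.4 to 4750 (edgeR adjusted p = 6.8e-25 with no filter). Cdca8 (borealin), its partner, had 2.22, 3.44 and 1.37 CPM in Healthy and 17.2 and 7.78 CPM in EAE, a log2 change of 2.53 (SE 0.45 in the main fit, adjusted p = 6.1e-06 with no filter). Both partners were higher in each EAE library than in any Healthy library. Cenpa, the histone H3 variant that marks centromeres, had 2.22, 5.16 and 0.686 CPM in Healthy and 41.1 and 35.0 CPM in EAE (log2 fold change 3.93, SE 0.42 in the main fit, adjusted p = 1.1e-21 with no filter). Cenpf, a protein of the outer kinetochore, had 3.33, 0.861 and 4.12 CPM in Healthy and 22.3 and 13.2 CPM in EAE (2.65, SE 0.48 in the main fit, adjusted p = 4.0e-08 with no filter). The kinetochore motor Cenpe had 1.11, 0 and 0.686 CPM in Healthy and 12.4 and 9.17 CPM in EAE, a ratio of 20.6 with a counting interval of 5.63 to 172 on 2 Healthy UMIs (adjusted p = 4.7e-08 with no filter). None of the 3 overlapped between groups.

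Regulators of mitotic entry and exit were higher in EAE as well. The B-type cyclin Ccnb2 had 2.22, 1.72 and 0.686 CPM in Healthy 1 to 3, against 30.2 and 18.3 CPM in EAE, a log2 change of 4.13 (SE 0.44 in the main fit, edgeR adjusted p = 9.4e-16 with no filter). Its kinase partner Cdk1 had 0, 0.861 and 0.686 CPM in Healthy and 15 and 5.56 CPM in EAE, on 2 Healthy UMIs, and was too low for the main fit. The fit with no filter gave Cdk1 an adjusted p of 8.9e-08. Cdca3, an F-box-like protein that promotes mitotic entry, had 1.11, 0.861 and 0.686 CPM in Healthy and 33.9 and 18.6 CPM in EAE, a ratio of 34 with a counting interval of 11.6 to 165 on 3 Healthy UMIs (adjusted p = 6.0e-19 with no filter). The spindle assembly factor Tpx2 had 1.11, 0 and 0.686 CPM in Healthy and 14.4 and 7.64 CPM in EAE, a ratio of 21.5 (interval 5.85 to 178, adjusted p = 2.4e-08 with no filter). Cdc20, the activator of the ubiquitin ligase that starts anaphase, had the lowest log2 fold change of the 11 mitotic genes in the main fit, 1.94 (SE 0.35, adjusted p = 0.00265), with 7.77, 5.16 and 4.12 CPM in Healthy and 27.7 and 12.4 CPM in EAE. Birc5, Cenpa, Cdca3 and Ccnb2 passed under every alternative tried in fibroblast-gated cells except the one that keeps the shared barcodes as deposited.

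The other 13 mitotic genes were sparse in Healthy cells, with at most 5.55 CPM in any Healthy library (Prc1 in Healthy 1). The kinases Aurka, Aurkb, Bub1 and Plk1 had no Healthy UMI. On the same floor of 3 UMIs over the group, they were 4.53-, 4.53-, 3.2- and 8.75-fold higher in the pooled EAE libraries. The lower limits of their counting intervals were 3.57, 3.57, 2.49 and 7. Aurkb had 5.86 CPM in EAE 1 and 0.833 CPM, on 6 UMIs, in EAE 2. Kif11, the motor that pushes spindle poles apart, had 2.22, 0 and 0 CPM in Healthy and 3.38 and 0.417 CPM in EAE, so that EAE 2 lay below Healthy 1.

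**Figure D2:**
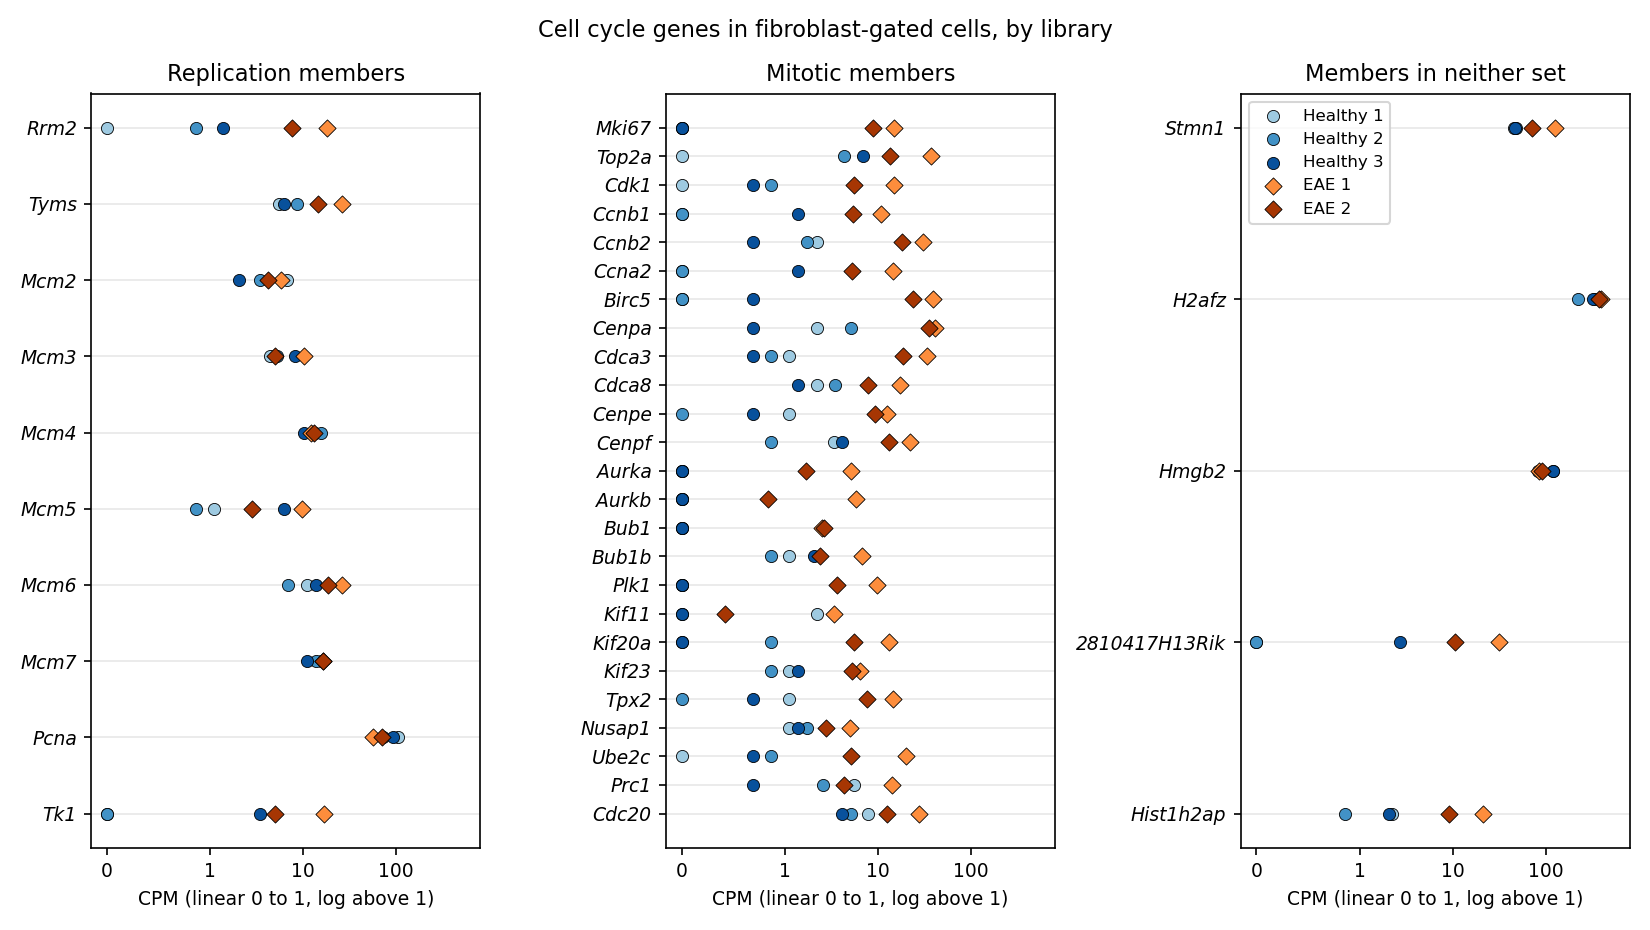
CPM of the 40 members in fibroblast-gated cells (horizontal axis, linear from 0 to 1 and log above), 1 row per gene and 1 mark per library (circles Healthy, diamonds EAE), in 3 panels by set. Mitotic genes such as Mki67 (0 in all Healthy libraries, 14.8 and 8.89 in EAE) separate by group, while Mcm4 and Hmgb2 overlap between the groups and Pcna lies lower in EAE (56.2 and 69.4) than in Healthy (71.4 to 104).

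Of the replication genes, those of nucleotide supply were higher in EAE and most helicase subunits did not pass the test. Rrm2, the regulated subunit of ribonucleotide reductase that makes deoxynucleotides, had 0, 0.861 and 1.37 CPM in Healthy 1 to 3, against 18.1 and 7.64 CPM in EAE 1 and EAE 2, a ratio of 16.9 with a counting interval of 5.7 to 82.5 on 3 Healthy UMIs (edgeR adjusted p = 5.7e-09 with no filter). Tyms, thymidylate synthase, had 5.55, 8.61 and 6.17 CPM in Healthy and 25.9 and 14.3 CPM in EAE, with a log2 change of 1.60 (SE 0.34, adjusted p = 0.00665). Tk1, the thymidine salvage kinase, had 0, 0 and 3.43 CPM in Healthy and 16.7 and 5 CPM in EAE, and passed in the fit with no filter (adjusted p = 8.3e-06). Each of these 3 enzymes of nucleotide supply was higher in both EAE libraries than in any Healthy library.

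The helicase subunits were less uniform. Mcm6 had 11.1, 6.89 and 13.7 CPM in Healthy and 26 and 18.3 CPM in EAE, and rose with a log2 change of 1.05 (SE 0.34, adjusted p = 0.0469). That call was lost under 8 alternatives, among them DESeq2, no batch term, and leaving out Healthy 2 or EAE 1. Mcm7 had 15.5, 13.8 and 11 CPM in Healthy and 16.4 and 16.4 CPM in EAE (log2 fold change 0.34, SE 0.29, adjusted p = 0.472). Mcm4 had 13.3, 15.5 and 10.3 CPM in Healthy and 12.2 and 13.2 CPM in EAE (-0.01, SE 0.31, adjusted p = 0.991), with the EAE libraries inside the Healthy range. Mcm4, Mcm6 and Mcm7 are parts of 1 complex, and the difference between their fold changes was not tested. Mcm2, Mcm3 and Mcm5 overlapped between groups and did not pass (adjusted p = 0.614 and 0.202 for Mcm2 and Mcm5 without the filter, 0.706 for Mcm3). In Healthy 3, 8 of the 9 Mcm5 UMIs were in 1 cell.

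Pcna, the sliding clamp of DNA polymerases, which also serves in DNA repair, had a fold change of the opposite sign. It stood at 104, 71.4 and 92.6 CPM in Healthy 1 to 3, against 56.2 and 69.4 CPM in EAE 1 and EAE 2. Its log2 fold change of -0.54 (SE 0.22) did not pass (adjusted p = 0.113). With CPM scaled by TMM, both EAE libraries were below each Healthy library, as for 15.4% of genes with any count. In CPM without that scaling, Healthy 2 (66.7) lay between EAE 1 (57.6) and EAE 2 (72.1).

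Of the genes in neither set, Stmn1, which encodes the microtubule destabiliser stathmin, had 45.5, 47.3 and 46.7 CPM in Healthy and 125 and 71.2 CPM in EAE (log2 fold change 1.09, SE 0.23, adjusted p = 0.00668). The PCNA-binding factor 2810417H13Rik (Pclaf) had 0, 0 and 2.74 CPM in Healthy and 31.8 and 10.6 CPM in EAE (4.20, SE 0.77 in the main fit, adjusted p = 6.3e-14 with no filter), on 4 Healthy UMIs. The histone gene Hist1h2ap had 2.22, 0.861 and 2.06 CPM in Healthy and 21.1 and 9.17 CPM in EAE (3.17, SE 0.51 in the main fit, adjusted p = 1.4e-08 with no filter). It belongs to a family of near-identical copies, so its reads may be split among them. These 3 genes did not overlap between groups. H2afz, the histone variant H2A.Z, had 336, 222 and 324 CPM in Healthy and 390 and 373 CPM in EAE and did not pass (0.37, SE 0.22, adjusted p = 0.278). Hmgb2, a chromatin protein, had 120, 83.5 and 121 CPM in Healthy and 84.9 and 90 CPM in EAE, with overlapping groups (-0.33, SE 0.21, adjusted p = 0.32).

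To ask how many cells carried the mitotic transcripts, each cell with at least 1000 UMIs was thinned at random to 1000, and a cell with at least 2 UMIs of a set was called positive for it. This left out 207, 17 and 6 cells of Healthy 1 to 3, and 0 and 44 of EAE 1 and EAE 2. No mitotic-positive cell was found among 386 in Healthy 1; the 95% Clopper-Pearson interval reaches 0.951% there, and 3 cells would be 0.777%. They numbered 1 of 362 in Healthy 2 (0.276%, same interval 0.00699 to 1.53) and 1 of 339 in Healthy 3 (0.295%, 0.00747 to 1.63). In EAE 1 they numbered 90 of 1667 (5.40%, 4.36 to 6.60) and in EAE 2 28 of 1111 (2.52%, 1.68 to 3.62). The intervals of both EAE libraries lay above those of all Healthy libraries and cover counting error only. The share was 3.96% ± 2.04 (SD, n = 2) in EAE and 0.19% ± 0.165 (SD, n = 3) in Healthy, a difference of 3.77 points. It was 4.1 points averaged over all possible draws and 2.33 points without EAE 1. Without thinning, the shares were 0%, 0.264% and 1.74% in Healthy and 12.96% and 10.1% in EAE.

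The replication set did not separate in the same way. Replication-positive cells made up 1.30%, 0.829% and 0.59% in Healthy 1 to 3, against 2.58% and 1.17% in EAE 1 and EAE 2, so EAE 2 lay inside the Healthy range, with a difference of 0.97 points between the groups' means (0.63 averaged over all possible draws, 0.265 without EAE 1 and 1.67 without EAE 2). Without thinning the shares were 3.20%, 5.81% and 13.04% in Healthy and 15.8% and 23.03% in EAE. Without Pcna the shares were 0.518%, 0% and 0.295% in Healthy and 1.98% and 0.36% in EAE. Cells positive for both sets numbered 0 in each Healthy library, 11 in EAE 1 and 2 in EAE 2. The mitotic UMIs were concentrated: at 1000 UMIs, cells with at least 2 held 79.6% of them in EAE 1 and 67.3% in EAE 2, and the highest cell had 14 and 9 against at most 2 in Healthy.

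**Figure D3:**
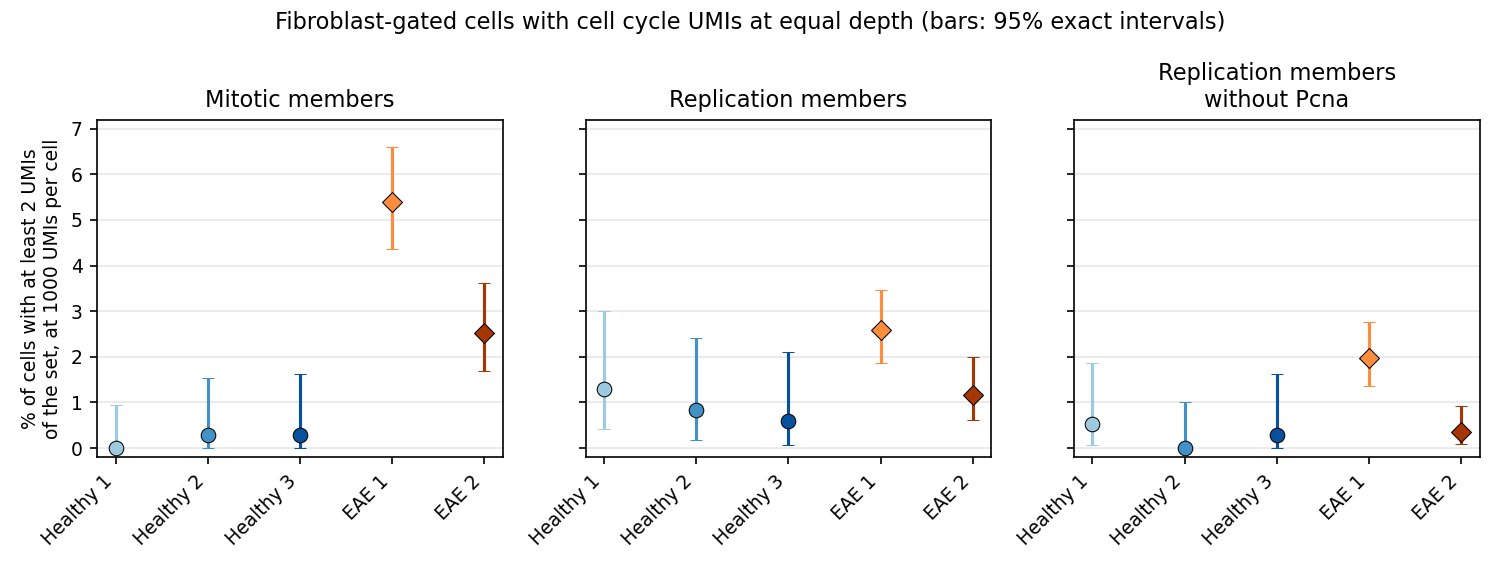
Percent of fibroblast-gated cells (vertical axis) with at least 2 UMIs of the mitotic set, the replication set, or the replication set without Pcna after thinning to 1000 UMIs per cell, by library, with 95% Clopper-Pearson intervals. Mitotic shares are 5.40% and 2.52% in EAE against at most 0.295% in Healthy, and the replication shares overlap.

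Pairs of genes were found in the same EAE fibroblasts. Top2a had a UMI in 55.7% of EAE 1 cells with Mki67 and in 4.01% of those without it, and in 40.6% and 3.56% in EAE 2. Given Cdc20, Ccnb2 was found in 59.6% of EAE 1 cells and 38.9% of EAE 2 cells, against 4.72% and 4.45% without. Rrm2 gave Top2a in 50% and 29.4% of cells, against 4.09% and 3.84% without it. For Pcna the gap was narrower. In EAE 1, 13.5% of cells with Pcna had Top2a against 4.19% without, and 6.94% against 3.52% in EAE 2. These shares are unthinned, and cells with Mki67 had a median of 8595 UMIs against 4548 without in EAE 1 and 10060 against 5071 in EAE 2; the part of depth in the pairing was not tested.

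**Figure D4:**
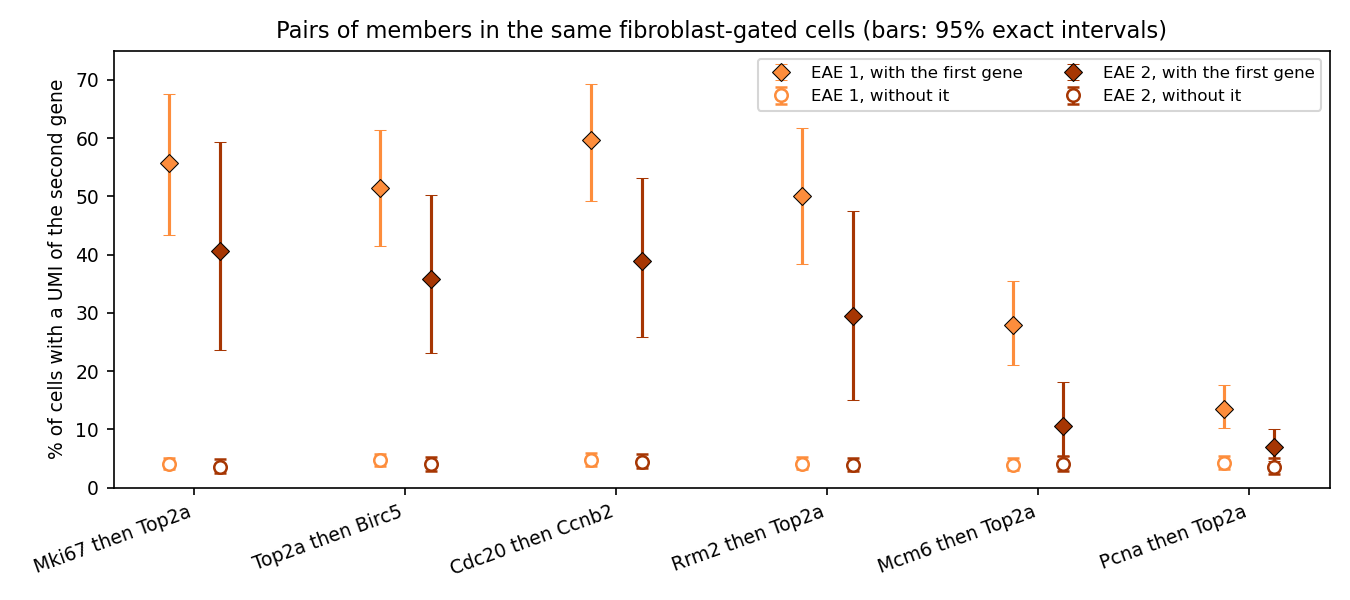
Percent of EAE fibroblast-gated cells with a UMI of the second gene (vertical axis) among cells with the first gene (diamonds) and without it (open circles), for 6 pairs in EAE 1 and EAE 2, with 95% exact intervals. The share with the first gene is higher in every pair and both libraries, with the widest gap for Cdc20 and Ccnb2 in EAE 1 (59.6% against 4.72%) and the narrowest for Pcna and Top2a in EAE 2.

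The 90 mitotic-positive fibroblasts of EAE 1 and the 28 of EAE 2 were compared with the 1310 and 904 cells with no mitotic or replication UMI at equal depth, as a description with no test. They had higher median UMI counts before thinning, 7640 against 4482 in EAE 1 and 8324 against 5295 in EAE 2. Col1a1 was at 7439 CPM against 7019 in EAE 1 and 7451 against 7656 in EAE 2. Other genes of the fibroblast gate were not all so close. Dcn was at 6420 against 10250 in EAE 1 and 5222 against 8885 in EAE 2, and Pdgfra at 248 against 294 and 155 against 295. Lum was at 507 against 725 and 777 against 611. Acta2, the smooth muscle actin of activated fibroblasts and of mural cells, was at 306 against 139 CPM in EAE 1 and 631 against 137 in EAE 2. The matrix protein Tnc was at 324 against 84.4 and 164 against 82.8. Cxcl9 went opposite ways, at 722 against 344 in EAE 1 and 97.7 against 151 in EAE 2. Rgs5, the only gene of the mural gate read in these cells, was at 4.08 against 17.8 on 3 UMIs. In EAE 2 it had no UMI, against 11.8. That is too little to say how far the positive cells lie from mural cells. Cycle genes outside the 40 were not uniform. Smc2, a condensin core subunit, was at 125 against 9.98 and 107 against 9.06, and Foxm1, the factor of the late wave, at 32.7 against 3.12 and 35.5 against 1.63. E2f1 was at 15.0 against 6.71 in EAE 1, on 11 UMIs in the positive cells. In EAE 2 its positive cells had no UMI, against 7.79 CPM. There 1 UMI was 4.44 CPM, so a fall cannot be read from this. Fen1 was at 24.5 against 4.83 and at 8.88 (on 2 UMIs) against 7.25, and Ccnd2 at 36.7 against 49.7 and 66.6 against 70.1. On the low side were Cdkn1c, the p57 inhibitor, at 29.9 against 129 and 17.8 against 185, Clec3b at 10.9 against 90.1 and 4.44 against 74.1, and the chemokine gene Cxcl12 at 371 against 751 and 116 against 545. These genes were chosen with results of these data known.

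Mitotic and replication UMIs were also counted in 220 EAE 1 barcodes rich in haemoglobin transcripts (median 2462 UMIs and 44 genes, so most did not reach the filter on genes), taken as barcodes that should lack fibroblast transcripts. Their mitotic level was 97.0 CPM against 433 in the fibroblast-gated cells, and their replication level 5.29 CPM against 202 (both without TMM scaling). Of their 55 mitotic UMIs, 33 were Ube2c and 15 Nusap1, and the other 23 mitotic genes had 7 in all, with Top2a, Birc5, Cenpa, Ccnb2, Cdca3 and Cdc20 at 0, where 3 UMIs would be 5.29 CPM. The total of 97.0 CPM thus rests mostly on Ube2c and Nusap1 and is no measure of stray RNA by itself. The source of their UMIs was not tested. At equal depth 4 of the 220 were mitotic-positive (1.82%, interval 0.498 to 4.59), against 5.40% of the fibroblast-gated cells with a median of 4647 UMIs. How many of these 4 rest on Ube2c or Nusap1 was not counted.

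Other gated classes in EAE also held mitotic transcripts. Melanocyte-gated cells, 44 in EAE 1 and defined by pigment genes such as Dct and Pmel, had a mitotic level of 1775 CPM (sums without TMM scaling here too), and 11 of the 44 were positive at equal depth (25%, 13.2 to 40.3). Their median depth was 14750 UMIs. Mural-gated cells (pericytes and smooth muscle) had a mitotic level of 852 CPM in Healthy 2, but 85 of those 87 UMIs lay in 1 of 26 cells, and 89 of 97 lay in 1 of 57 cells in EAE 1. In EAE 2 the mural-gated level was 1125 CPM, with 7 of 31 cells positive at equal depth (22.6%, 9.59 to 41.1). Immune-gated cells had a mitotic level of 894 CPM in EAE 1 (129 cells) and 170 in EAE 2 (35 cells), and replication genes at 478 and 459 CPM. At equal depth 17 of 129 immune-gated cells were mitotic-positive in EAE 1 (13.2%, 7.87 to 20.3) and 1 of 35 in EAE 2 (2.86%, 0.0723 to 14.9). Within EAE 1 the positive share was 13 of 31 (41.9%, 24.6 to 60.9) among immune-gated cells with more lymphocyte than myeloid markers and 3 of 90 (3.33%) among those with more myeloid markers. EAE 2 had 1 of 21 and 0 of 12. Healthy 1 and Healthy 2 held 1 immune-gated cell each and Healthy 3 none.

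**Figure D5:**
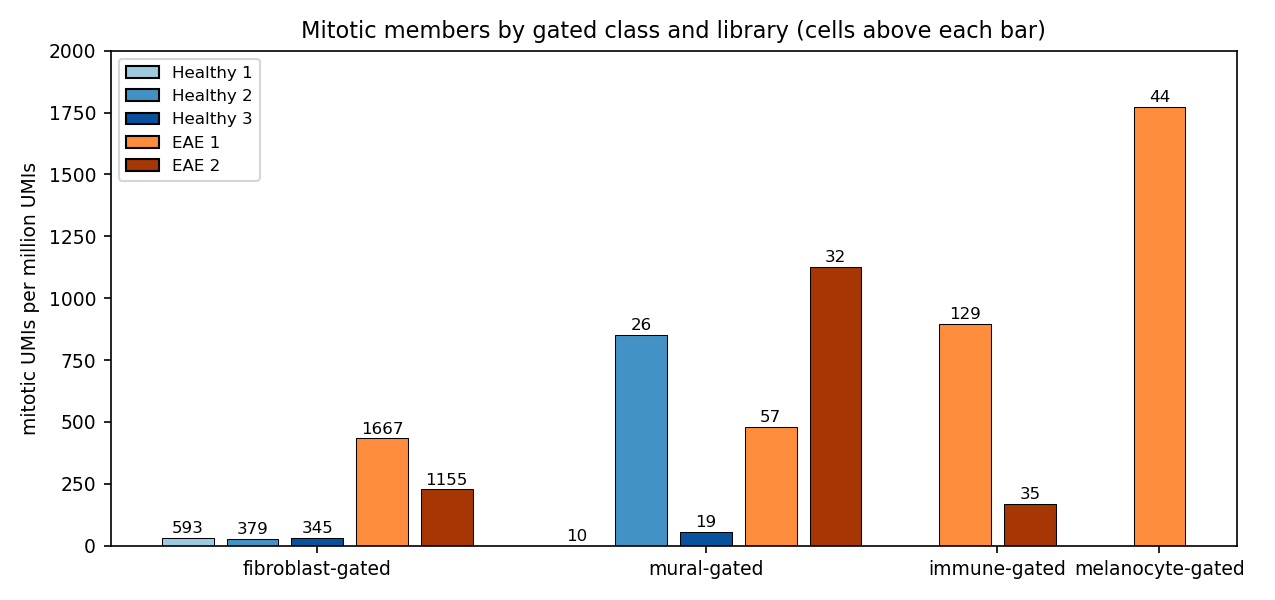
Mitotic level in CPM (vertical axis, UMIs per 1000000) in each gated class of each library with at least 10 cells, with the number of cells above each bar. In EAE 1 the level runs from 433 in fibroblast-gated to 894 in immune-gated and 1775 in melanocyte-gated cells, and the mural value of Healthy 2 (852) rests on 1 cell.

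Immune-gated cells were compared with fibroblast-gated cells of the same EAE library in an edgeR fit with library as a block. The genes that passed came from all 3 sets: Mcm3, Mcm5 and Mcm6 were higher in immune-gated cells, with 1 mitotic gene (Top2a) and 3 of the others (Hmgb2, H2afz and 2810417H13Rik). That is 7 of the 40 members, where 7.48% of the 11663 genes tested were higher. None was lower, where 11.9% of genes were. Mcm5 was at 44.7 CPM against 10.1 in EAE 1 and at 31.5 against 2.96 in EAE 2 (log2 difference 2.49, SE 0.69, adjusted p = 0.00272). Hmgb2, which did not differ beyond the threshold between Healthy and EAE fibroblasts, was at 708 against 87.9 CPM and at 299 against 95.9 (2.36, SE 0.50, adjusted p = 2.8e-05). Top2a was at 130 against 38.3 and at 39.4 against 14.2 (1.67, SE 0.50, adjusted p = 0.00739). In EAE 2 the immune-gated sums rest on 20 mitotic UMIs, and under DESeq2 no replication or mitotic gene and 1 other passed.

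Over all sorted cells, with no gate, 24 of the 25 mitotic genes, 6 of the 10 replication genes and 4 of the 5 others were higher in EAE in the edgeR fit with no filter, where 9.73% of 18628 genes were higher and 6.18% lower. Kif11 (adjusted p = 0.0667) was the mitotic gene that did not pass. With the filter, 12 mitotic, 3 replication and 3 other members passed, where 9.06% of the genes tested were higher and 9.65% lower. Here too a gene sparse in Healthy cells passes the filter only through EAE, so this count is not separate support. EAE values exceeded every Healthy value for 21 mitotic genes, 5 replication genes and 4 of the others, where 21.7% of genes with any count did. Without EAE 1, 5 mitotic genes and none of the other members passed, and without Healthy 1, Healthy 2, Healthy 3 or EAE 2 the mitotic count was 20, 19, 19 and 19. Without Healthy 3, 5 replication genes passed. For these fits too the share over all genes is not given here. Mki67 was at 0, 2.25 and 0 CPM in Healthy 1 to 3, against 21.9 and 10.3 CPM in EAE, with its 3 Healthy UMIs all in Healthy 2. Its edgeR adjusted p was 1.0e-12 with no filter. With the filter, which it passed only through EAE, the value was 0.00109. Ube2c, the E2 enzyme of the anaphase ubiquitin ligase, was at 0, 10.5 and 0.643 CPM in Healthy and 28.1 and 6.68 in EAE. EAE 2 thus lay below Healthy 2. Ube2c passed in the fit with no filter but not in the fit with the filter (edgeR adjusted p = 0.0533). The mural-gated cell with 85 mitotic UMIs is part of these Healthy 2 sums. Hmgb2 was at 119, 84.9 and 118 CPM in Healthy and 142 and 104 in EAE, with overlapping groups.

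Other genes of the cycle, in 8 lists, were read in the fibroblast-gated cells. The edgeR fit with no filter, in which 9.13% of all genes were higher and 6.15% lower, tested every listed gene, and its counts come first. The fold changes with an SE and the p-values are from the main fit, in which 10.2% were higher and 10.7% lower, unless said otherwise. Of the 8 cyclins and kinases of G1, 1 was higher and 1 lower with no filter, and of the 6 tested in the main fit none was higher and 1 was lower, counts near those over all genes. The lower one was Ccnd2, cyclin D2, at 114, 112 and 139 CPM in Healthy and 48.8 and 66.2 in EAE (log2 fold change -1.15, SE 0.20, adjusted p = 0.00191). The higher one was Ccne2, cyclin E2, named after its values were seen, at 0, 0.861 and 2.74 CPM in Healthy and 5.63 and 6.81 in EAE (adjusted p = 0.00896 with no filter). Of the 7 inhibitors of cyclin-dependent kinases, 4 were lower with no filter and 3 in the main fit, and none was higher, with a main median log2 fold change of -0.89 beside 0.01 over all genes. Cdkn1a, the p21 inhibitor, was at 436, 294 and 242 CPM in Healthy and 66.6 and 124 in EAE (-1.80, SE 0.38, adjusted p = 0.015), and neither it nor Ccnd2 overlapped between groups. Cdkn2d was at 39.9, 71.4 and 61.1 CPM in Healthy and 31.4 and 31.4 in EAE (-0.89, SE 0.25, adjusted p = 0.0268). Cdkn2a (-1.54, adjusted p = 0.047) also fell in both fits, and Cdkn2b (-1.33, adjusted p = 0.0741) passed with no filter alone; both were named after their values were seen.

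In the lists of S phase, single members passed and most did not. Of the 14 E2F, pocket protein and MuvB regulators, 2 were higher with no filter (median 0.50, or 0.38 with genes at 0 in Healthy set at their bound) and 1 of 7 in the main fit (median 0.22). That one was E2f1, the S-phase activator, at 0, 0.861 and 3.43 CPM in Healthy and 9.69 and 7.22 in EAE (2.31, SE 0.66 in the main fit, adjusted p = 5.9e-04 with no filter). Of the 13 origin licensing and firing genes, 3 were higher with no filter (median 0.44) and 1 of 5 in the main fit (median 0.03), the kinase subunit Dbf4, at 2.22, 1.72 and 2.74 CPM in Healthy and 8.11 and 8.06 in EAE (adjusted p = 0.00623 with no filter). Of the 16 replication fork and nucleotide supply genes, 5 were higher and 1 lower with no filter (median 0.53), and 4 of 14 were higher in the main fit (median 0.12). Among these 4, Rrm1, the partner of Rrm2, was at 9.99, 6.89 and 6.17 CPM in Healthy and 21.3 and 12.6 in EAE (1.24, SE 0.33, adjusted p = 0.0221). Uhrf1, which carries DNA methylation through replication, was at 2.22, 0.861 and 2.74 CPM in Healthy and 11.4 and 6.81 in EAE (adjusted p = 5.6e-04 with no filter). The others of these 4 were Dut and Dnmt1, named after their values were seen.

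In the lists of mitosis, most members were too low for the main fit. Of the 12 kinetochore and checkpoint genes, 5 were higher with no filter (median 1.96) and 2 of 4 in the main fit (median 0.94). Spc25 was at 0, 1.72 and 3.43 CPM in Healthy and 22 and 13.5 in EAE (edgeR adjusted p = 9.9e-10 with no filter), and Cenpm at 1.11, 0.861 and 4.12 CPM and 12.8 and 9.58 (adjusted p = 6.8e-05 with no filter). Of the 8 condensin and cohesin genes, 2 were higher with no filter (median 0.68) and 1 of 6 in the main fit (median 0.37), the condensin subunit Smc4, at 24.4, 30.1 and 35.7 CPM against 54.6 and 54.4 (adjusted p = 0.0211). Of the 11 mitotic kinesins and cytokinesis genes, 9 were higher with no filter (median 3.63, or 2.38 with the 4 at 0 in Healthy set at their bound). Racgap1, which helps to place the cleavage furrow, was at 1.11, 1.72 and 0.686 CPM in Healthy, on 4 UMIs, and at 12.4 and 7.92 in EAE (3.28, adjusted p = 3.0e-06 with no filter). It alone of the 11 passed the filter of the main fit, through its EAE counts.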

How the data were processed

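The authors deposited, for each of the 5 libraries, a table with a UMI count for every gene and barcode, read here as raw counts. Per the labels' protocols, cords were dissociated, GFP-positive cells were sorted and libraries followed the 10x Genomics v2 protocol. Cell Ranger 2.1.1, Seurat 3 and build mm10 are named per the submitters' processing notes, with settings not given in the sources used here. Members, gene lists and tests were chosen with earlier results of these data known.

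A barcode shared within the first batch was kept where its UMI total was highest. Barcodes with under 200 genes or over 10% mitochondrial UMIs were dropped, and doublets were not removed. Classes other than fibroblasts needed at least 4 markers and 0.2% of UMIs, and haemoglobin-rich barcodes at least 5%. Of the fibroblast-gated cells, 148 had the lowest number of markers that passes and 100 kept cells fell 1 short. For immune-gated cells these numbers were 13 and 19, and for mural-gated cells 30 and 161. Counts were summed per library and tested with edgeR 4.0.16 (TMM, filterByExpr, batch and state, robust quasi-likelihood, Benjamini-Hochberg threshold 0.05), with DESeq2 1.42.0 as an alternative. Counting intervals are 95%. On simulated counts of the fibroblast-gated comparison (9552 genes), 50 of 50 genes raised by 2 on the log2 scale were recovered and 19 of 49 raised by 1. Of 9360 unchanged genes, 17 were called. The simulation held no batch effect and used the main fit with its filter, so it does not cover the fit with no filter. Values in every library are given for the 4 replication and 8 mitotic members with the highest mean CPM, the 5 in neither set, further members past the threshold (up to 6 per set), and from each other list up to 2 genes past it in each direction by smallest p. Promoters are RefSeq's and gene positions come from an annotation of GRCm38.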

Additional observations from a re-analysis of the deposited data

How the results depend on the processing

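In fibroblast-gated cells, dropping the filter on low counts gave 22 mitotic genes higher in EAE in place of 11. Keeping shared barcodes as deposited gave 1 replication and 4 mitotic genes, and requiring 6 fibroblast markers gave 1 replication, 4 mitotic and 0 other members. Leaving out the 5% of cells with the most UMIs, chosen after seeing the data, gave 0 replication and 7 mitotic genes. Leaving out 1 library at a time gave 0 to 5 replication, 4 to 20 mitotic and 0 to 4 other members. Over all sorted cells the counts were 6 replication and 24 mitotic genes with no filter, 6 mitotic genes with barcodes as deposited, and 0 to 5, 5 to 20 and 0 to 4 without 1 library. For immune-gated against fibroblast-gated cells, DESeq2 called 0, 0 and 1. These counts are given without the share over all genes in the same fits, so a general change in the number of calls cannot be told apart. The cause of these changes was not tested.

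The mitotic difference in shares at equal depth, 3.77 points, became 6.23 at 2000 UMIs, 10.9 with no thinning, 6.23 for at least 1 UMI, 0.561 with barcodes as deposited, 2.37 at 500 UMIs and 2.76 for at least 3 UMIs, and lay between 2.33 and 5.21 without 1 library. The replication difference, 0.97 points, became 2.35, 12.1, -0.887, -0.00767, 0.196 and 0.0232 in the same order, and 0.265 to 1.67.

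Signs turned for Mcm4, Hmgb2 and Cenpf. Mcm4 (-0.01) was 0.01 under DESeq2, 0.09 with library totals, 0.00 with RLE factors, 0.09 with no filter, 0.06 as deposited, 0.03 without the top 5% of cells, 0.04 with the stricter gate, and -0.25 to 0.37 without 1 library. Over all sorted cells, Mcm4 ran from -0.10 to 0.54 and Hmgb2 from -0.18 to 0.49 without 1 library, and Hmgb2 was -0.06 without the top 5%. In the immune comparison Cenpf was 0.66 (SE 0.64) in the main fit and -0.03 under DESeq2. Of 469 alternative values for the named genes in fibroblast-gated cells, 381 kept direction and side of the threshold, 77 lost the call, 1 gained it and 10 turned sign.

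No paired analysis was possible because the title of EAE 1 carries no replicate number, and the number that remains in common lies in different batches. With 1 Healthy and 1 EAE library in the second batch, leaving out Healthy 3 or EAE 2 leaves the first batch to carry the contrast. In Healthy cells, depth limits what can be said of most mitotic genes, which had 0 to 5 UMIs in all.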
